A study of Homo sapiens with 62 samples.

Results

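Classical identity transcription factors were taken as 8 genes chosen by name, HNF4A, HNF4G, GATA6, FOXA1, FOXA2, FOXA3, CDX2 and SOX9, of 29794 genes counted in each line. All 8 had a row in the T>C table and in the all-reads table of AsPC-1 and of T3M-4. AsPC-1 and T3M-4 are human pancreatic ductal adenocarcinoma (PDAC) lines, used by the study as a classical and a basal-like model. In every group the KLF5 protein came from a lentiviral copy fused to FLAG and FKBP12-F36V, a tag that the degrader dTAGv-1 binds, in selected pools of cells whose endogenous KLF5 had been targeted with guide RNAs. SLAM-seq was used: cells took up 4-thiouridine (4sU) for 2 h, and reads from RNA made in that time carry T>C conversions. Cells received dTAGv-1 (dTAG) or its inactive analogue dTAGv-1-NEG (NEG) for 4 h, or CB-6644, an inhibitor of the RUVBL1/2 ATPases, NVP-2, which inhibits the kinase CDK9, or the solvent DMSO. AsPC-1 had 10 NEG and 10 dTAG libraries, 5 DMSO and 5 CB-6644 libraries at 4 h, 4 DMSO and 4 CB-6644 libraries at 12 h, and 4 libraries treated with NVP-2 for 4 h. T3M-4 had 4 libraries of each of NEG, dTAG, DMSO, CB-6644 and NVP-2 at 4 h. The question was how the new RNA of these factors, their whole RNA pool and the share of that pool made during labelling changed in each treatment.

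HNF4A and HNF4G are nuclear receptors that activate genes of liver, gut and classical PDAC cells. GATA6 is a zinc finger factor whose loss accompanies the basal-like state of PDAC. FOXA1, FOXA2 and FOXA3 are forkhead pioneer factors, able to bind closed chromatin and open it for other factors. CDX2 is a homeobox factor of the intestine, and SOX9 an HMG box factor of pancreatic ducts and progenitors. Such factors often bind the enhancers of their own genes and of each other. KLF5 is a zinc finger factor of epithelia that binds GC-rich and CACCC sequences. Transcription factor mRNAs often turn over fast, and CDK9 releases paused RNA polymerase II into elongation.

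The level of new RNA is in T>C CPM, the reads with conversions scaled so that such reads sum to the same total in each library. The level of the whole pool is in CPM of all reads. The labelled share is the percentage of a gene's reads that carry conversions. CPM are relative to a library's own total, so they do not show a change shared by all genes. Levels are not compared between genes here, since 3′ end counts of different genes are not on the same scale. Changes were tested with edgeR for reads and limma for labelled shares across all genes, and an adjusted p under 0.05 was called. Where groups are said not to overlap, the share of all genes for which this holds was not counted. The study calls the libraries of an experiment biological replicates. Separate cultures are not named in the sources used here, so p-values measure the spread between these libraries, which may in part be technical. T>C totals per library were 8296433 to 18311982 in AsPC-1 and 13562612 to 27982537 in T3M-4 without NVP-2. With NVP-2 they were 2240998 to 3517345 and 3714015 to 4982006.

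Gene records are those of GENCODE v44 on GRCh38, and the counted reads lie in annotated 3′UTR exons. HNF4A (ENSG00000101076.20) is at chromosome 20, 44355699 to 44432845, plus strand. GATA6 (ENSG00000141448.11) is at chromosome 18, 22169589 to 22202528, plus strand. FOXA1 (ENSG00000129514.8) is at chromosome 14, 37589552 to 37596059, minus strand, and FOXA2 (ENSG00000125798.15) at chromosome 20, 22580998 to 22585455, minus strand. FOXA3 (ENSG00000170608.3) is at chromosome 19, 45863989 to 45873797, plus strand. CDX2 (ENSG00000165556.10) is at chromosome 13, 27960918 to 27969315, minus strand, and SOX9 (ENSG00000125398.8) at chromosome 17, 72121020 to 72126416, plus strand. HNF4G is ENSG00000164749.13. All 1708 bases of the GATA6 3′UTR lie inside the antisense gene ENSG00000266283, and all 2032 bases of the SOX9 3′UTR inside SOX9-AS1 and ENSG00000288605, also antisense. The sources used here do not say whether counting used the strand, so sense and antisense reads cannot be told apart there. Of the 6259 bases of HNF4A 3′UTR, 84 are shared with MIR3646 on the same strand. Every FOXA2 count was a multiple of 2 in both lines, as was every T>C count of HNF4G in T3M-4, so the counting error there may be larger than the counts imply.

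HNF4A is transcribed from separate promoters, and its RNA was lower after KLF5 degradation in AsPC-1 as described below, so the 250 bases before each of its annotated starts are shown (RefSeq on GRCh38.p14, plus strand, 5′ to 3′). Capitals mark CACCC, its reverse complement GGGTG, the GC box GGGCGG and its reverse complement CCGCCC.
HNF4A, chr20:44355449-44355698: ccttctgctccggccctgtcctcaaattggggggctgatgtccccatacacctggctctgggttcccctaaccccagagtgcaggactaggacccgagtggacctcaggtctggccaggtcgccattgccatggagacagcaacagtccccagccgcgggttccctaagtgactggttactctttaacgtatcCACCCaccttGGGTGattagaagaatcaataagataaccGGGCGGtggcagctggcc
HNF4A, chr20:44400989-44401238: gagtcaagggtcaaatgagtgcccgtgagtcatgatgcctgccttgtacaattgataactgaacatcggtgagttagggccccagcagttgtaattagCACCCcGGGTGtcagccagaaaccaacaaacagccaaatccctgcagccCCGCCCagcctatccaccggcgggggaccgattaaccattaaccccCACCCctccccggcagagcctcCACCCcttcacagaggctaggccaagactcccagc
The first window held 2 CACCC matches and 1 GC box on either strand, and the second 4 and 1. Among 35116 promoter windows of 250 bases in the same source, 54.71% held CACCC and 42.64% held GGGCGG on either strand, so these letters are common. Of the other factors with a window, GATA6 had 2 CACCC matches and 0 GC boxes, FOXA1 0 and 2, FOXA3 2 and 3, and CDX2 0 and 0. The FOXA1 and FOXA3 windows lie inside the GENCODE v44 gene, past its first base, and that of FOXA3 overlaps 1 UTR feature. In all, 5 of 8 factors matched a record. A match describes letters and is no evidence of KLF5 binding.

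The lines carried different members of these families. HNF4A and HNF4G were present in AsPC-1 and nearly absent in T3M-4, and FOXA2 was the reverse. In the 5 AsPC-1 DMSO libraries at 4 h HNF4A had 12.6, 16.8, 22.2, 16.1 and 12.4 CPM of all reads, and in the 4 T3M-4 libraries 0.182, 0.126, 0.474 and 0.368. FOXA2 had 0.0151 to 0.145 CPM in AsPC-1, from 32 reads in 5 libraries, and 32.5, 28.8, 24.5 and 21.1 in T3M-4. These groups did not overlap for either gene. In all reads of DMSO libraries, AsPC-1 against T3M-4, HNF4A was higher by a log2 difference of 5.89 (edgeR, SE 0.44, adjusted p 2.02e-06), HNF4G by 4.22 (SE 0.47, adjusted p 3.12e-05) and GATA6 by 1.25 (SE 0.22, adjusted p 0.00076), and 25.2% of all genes tested were called higher. FOXA2 was lower by a log2 difference of −8.67 (edgeR, SE 0.49, adjusted p 3.18e-07), with 30.5% of genes called lower. T>C reads gave the same 4 calls. FOXA1 (0.83, SE 0.42), FOXA3 (−0.57, SE 0.85), CDX2 (−0.06, SE 0.37) and SOX9 (0.21, SE 0.42) were not called. FOXA1 was called once AsPC-1 DMSO library 1.3 was left out (1.04, adjusted p 0.0297), and SOX9 within batch 1 (1.39996, adjusted p 0.00935). Each line is a single source, so these tests compare libraries of 2 lines.

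Over all NEG and DMSO libraries, 19 in AsPC-1 and 8 in T3M-4, the T>C levels gave the same picture. HNF4A had 42.1 ± 19.7 T>C CPM (SD, n = 19) in AsPC-1 and 0.198 ± 0.376 (n = 8) in T3M-4, where 4 of 8 libraries were at 0. HNF4G had 9.17 ± 3.36 and 0.442 ± 0.376, and GATA6 22.6 ± 4.51 and 10.4 ± 1.86. FOXA2 had 0.193 ± 0.299, with 12 of 19 libraries at 0, against 155 ± 12.2. FOXA3 was near the detection limit in both lines, at 0.232 ± 0.282 and 0.437 ± 0.263. FOXA1 had 9.27 ± 5.65 and 6.84 ± 2.16, CDX2 9.74 ± 4.30 and 7.65 ± 1.32, and SOX9 99.8 ± 44.6 and 95.1 ± 65.7, all within the spread of the libraries. Pancreatic ductal markers (KRT8, KRT18, KRT19, EPCAM and CDH1) summed to 3718 to 9210 CPM of all reads in AsPC-1 controls and 1341 to 2136 in T3M-4. The basal markers TP63, KRT5, KRT6A, KRT14, KRT17 and S100A2 summed to 13.2 to 57.1 against 2687 to 4843, with TP63, KRT5 and KRT14 under 0.1 CPM in AsPC-1. Acinar and endocrine markers were all under 0.1 CPM on average in both lines. Epithelial markers were thus present in both lines, and the basal markers mainly in the line called basal-like. Fibroblast markers summed to at most 0.407 CPM in AsPC-1 and 9.04 in T3M-4, immune markers to at most 15.1 and 2.87 and endothelial markers to at most 0.0864 and 1.21.

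The AsPC-1 libraries were divided into 3 sets by clustering, and HNF4A, FOXA1 and CDX2 differed widely among the sets. The sets, called A (17 libraries), B (17) and C (8), came from clustering the 500 most variable genes among the controls with the 8 factors left out. The number of sets was a setting of the clustering. Genes were chosen by their spread among controls, so the sets cannot show how strongly treatment groups the libraries. Set C held the libraries of experiment 2 other than NVP-2. Of the rest without NVP-2, libraries numbered 1 and 2 within an experiment or at 12 h were in A, and 3 and 4 in B. CB-6644 library 1.2 at 4 h was the exception, in B. For NVP-2, libraries 1.1 and 1.2 were in A and 2.1 and 2.2 in B. HNF4A had 29.6 ± 7.52 T>C CPM (SD, n = 8) in set A controls, 64.5 ± 12.0 (n = 7) in set B and 28.0 ± 6.69 (n = 4) in set C. FOXA1 ran the other way, with 15.1 ± 2.24, 3.28 ± 0.728 and 8.09 ± 1.54. CDX2 was low in set C, at 3.39 ± 0.586 against 10.5 ± 2.44 in A and 12.5 ± 3.47 in B. HNF4G had 12.0 ± 2.79, 6.63 ± 1.99 and 7.95 ± 1.79, and SOX9 123 ± 50.8, 69.4 ± 31.5 and 107 ± 17.7. GATA6 differed by less than its spread, at 24.2 ± 4.71, 21.0 ± 3.84 and 22.1 ± 5.28. No test was made between the sets, which were found in these data. Each of the dTAG and NEG groups held 4 libraries of set A, 4 of B and 2 of C. DMSO at 4 h held 2, 1 and 2, and CB-6644 at 4 h 1, 2 and 2. At 12 h each group held 2 of A and 2 of B, as did NVP-2. In T3M-4, SOX9 was similarly split by experiment, with 34.7 ± 6.33 T>C CPM (n = 4) in controls of experiment 1 and 155 ± 17.2 (n = 4) in experiment 2.

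**Figure D1:**
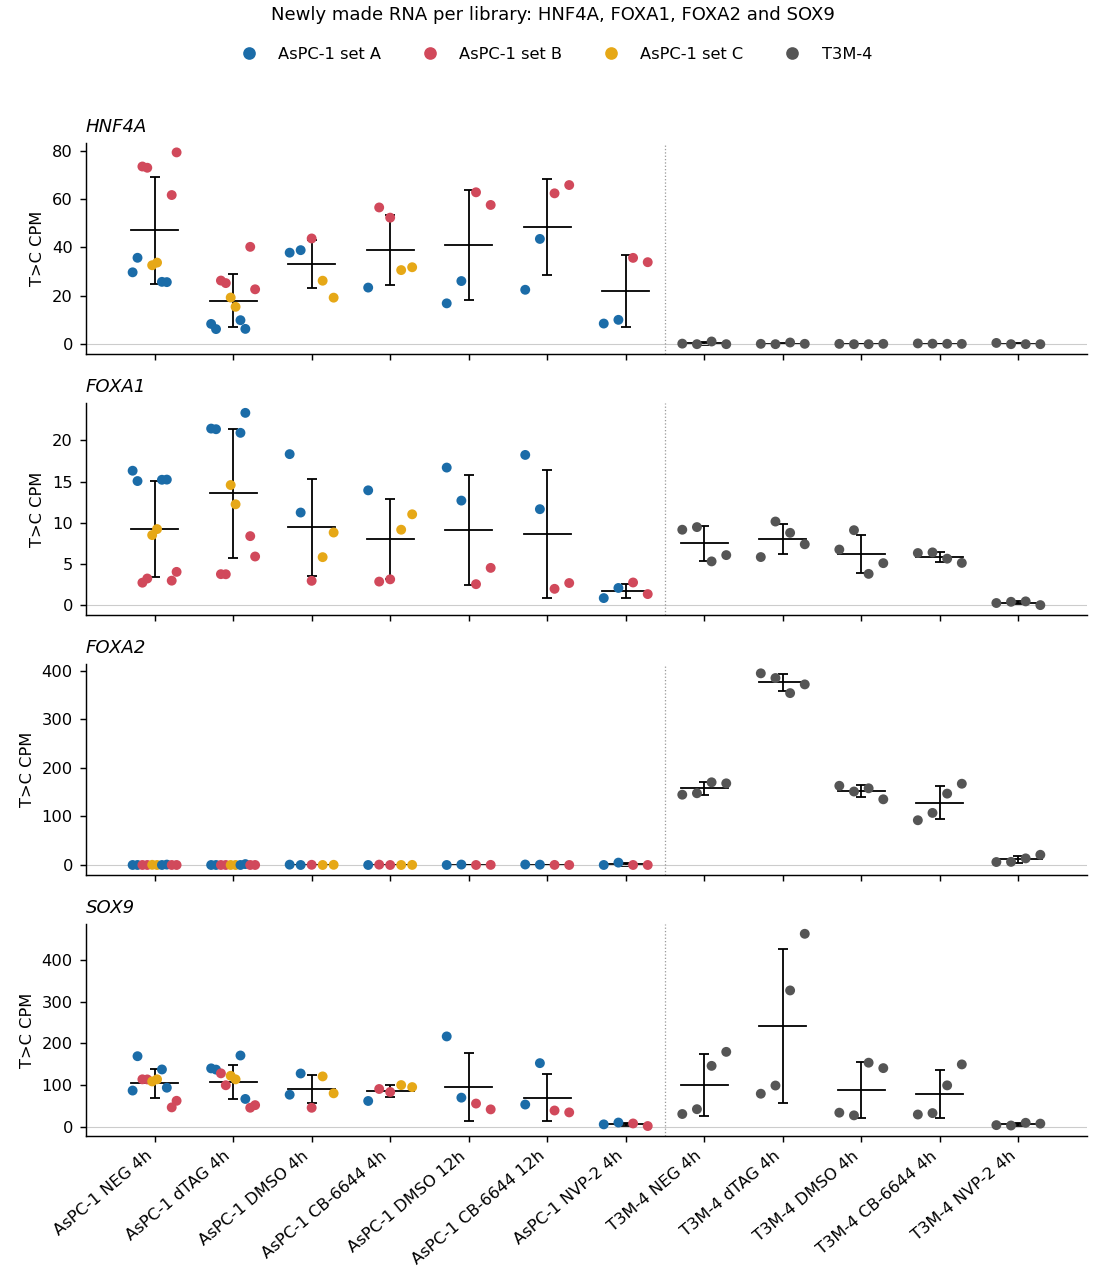
New RNA of HNF4A, FOXA1, FOXA2 and SOX9 in T>C CPM. Each point is a library of the group named on the horizontal axis, coloured by AsPC-1 set (A, B, C) or line. Black bars give the mean ± SD. HNF4A in AsPC-1 and FOXA2 in T3M-4 fill the panels of 1 line each. Among the AsPC-1 NEG and DMSO libraries, HNF4A is highest and FOXA1 lowest in set B.

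**Figure D2:**
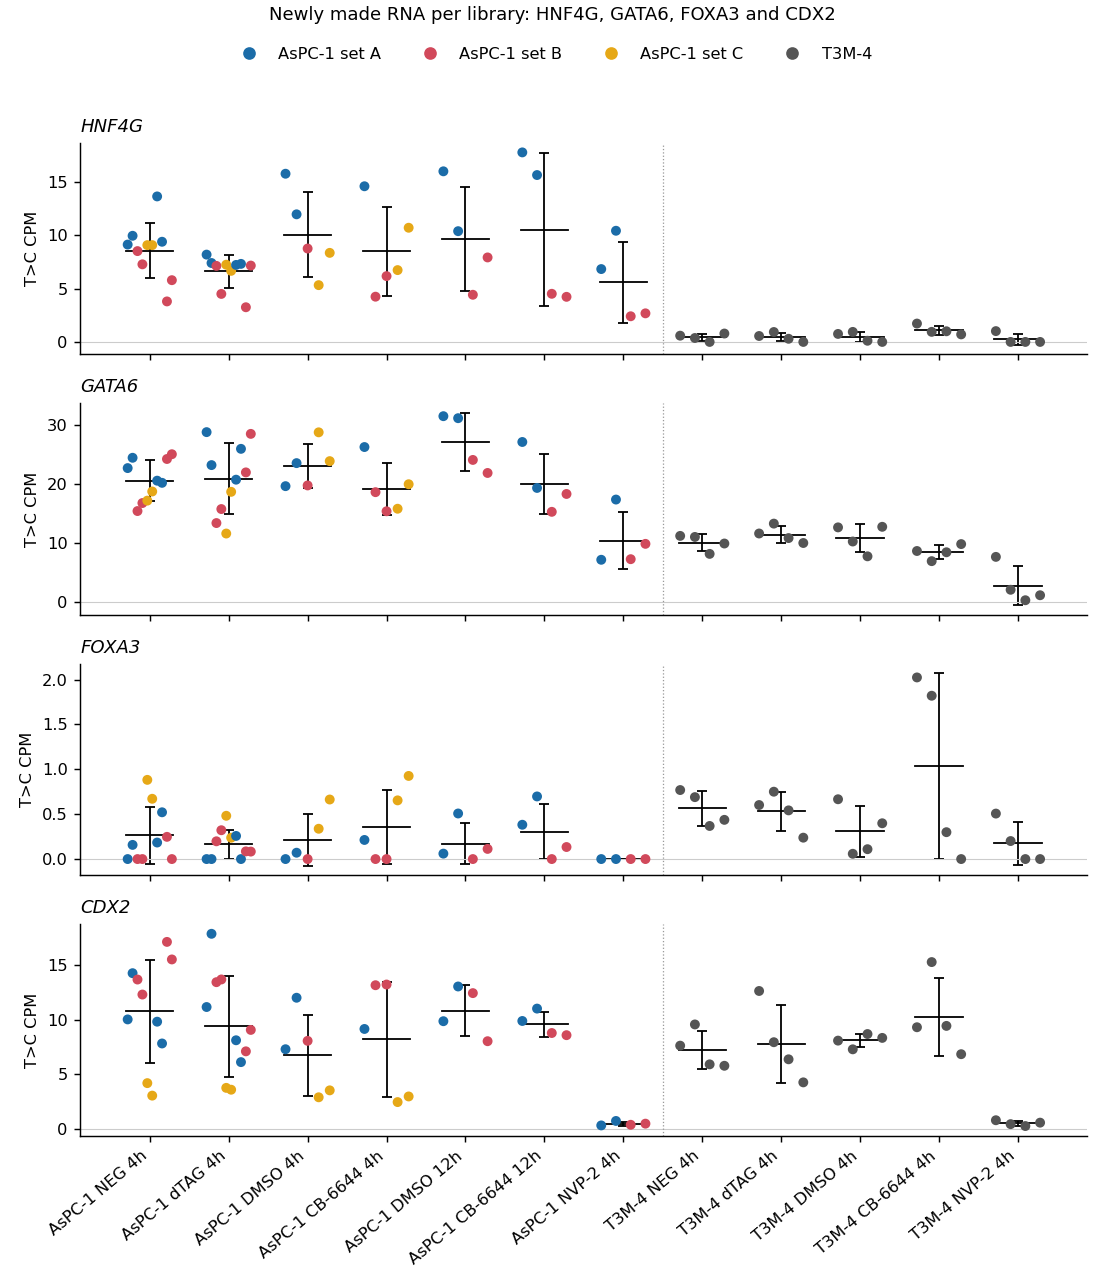
New RNA of HNF4G, GATA6, FOXA3 and CDX2 in T>C CPM, drawn as in the plot of HNF4A. FOXA3 stays at or under 2.02 T>C CPM in every library, and CDX2 is under 1 T>C CPM in all NVP-2 libraries of both lines.

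New HNF4A RNA fell after degradation of KLF5 in AsPC-1, and HNF4A was the only one of the 6 factors tested that was called without a block. KLF5's own reads lie in its 3′UTR and do not measure the degradation: KLF5 had 105 ± 20.2 T>C CPM (SD, n = 10) in NEG and 156 ± 18.3 (n = 10) after dTAG. HNF4A ranged from 25.7 to 79.3 T>C CPM in NEG, with a median of 34.7, and from 6.24 to 40.3 after dTAG, with a median of 17.4. By set, NEG libraries had 25.7 to 35.7 in A, 61.7 to 79.3 in B and 32.6 to 33.7 in C, and dTAG libraries 6.24 to 9.91, 22.7 to 40.3 and 15.5 to 19.3. So every dTAG library lay below every NEG library of its own set, and 8 of 10 lay below all NEG libraries. The mean was 47.1 ± 22.0 in NEG and 18.0 ± 10.96 after dTAG, 2.61 times lower. The log2 fold change was −1.36 (edgeR, SE 0.34, adjusted p 0.0308). Of 11696 genes tested, 1.94% were called lower. Libraries with the same number deviated together and were taken as pairs. In 10 of 10 such pairs dTAG was lower, at 0.174 to 0.653 of NEG with a median of 0.352. With the number as a block the log2 fold change was −1.47 (edgeR, SE 0.16, adjusted p 5.01e-05). It was −1.90 (adjusted p 0.00316) in set A alone, −1.33 (0.0098) in B and −0.92 (0.289) in C. It was −1.45 (adjusted p 0.091) in batch 1 alone and −1.29 (0.594) in batch 2, and leaving out any of experiments 1, 2 and 3 gave −1.45 to −1.17 with adjusted p of 0.0777 to 0.447. The direction was thus kept in every one of these subsets, and the call was not.

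FOXA1 had higher T>C CPM after dTAG in AsPC-1 in 10 of 10 pairs of libraries, at 1.16 to 2.82 of NEG with a median of 1.399. These values are relative to the labelled total, which was on average 9.30% of all reads in NEG and 8.001% after dTAG. Because FOXA1 differed so widely among the sets, the unpaired groups overlapped, from 2.72 to 16.3 T>C CPM in NEG (median 8.87) and from 3.75 to 23.3 after dTAG (median 13.4). Within the sets, the mean was 15.5 ± 0.577 in NEG and 21.8 ± 1.08 after dTAG in A, and all 4 dTAG libraries of A, from 20.9 to 23.3, lay above all 4 NEG libraries, from 15.1 to 16.3. It was 3.24 ± 0.570 and 5.45 ± 2.201 in B, and 8.87 ± 0.517 and 13.4 ± 1.65 in C. The log2 fold change was 0.57 (edgeR, SE 0.40, adjusted p 0.678). With the replicate number as a block it was 0.61 (edgeR, SE 0.13, adjusted p 0.00689), and with library set and experiment as a block, an alternative that uses sets found in these data, 0.61 (adjusted p 0.00119). With libraries summed per experiment and the experiment as a block FOXA1 was not called (0.56, adjusted p 0.135), while HNF4A was (−1.31, adjusted p 0.0152). The replicate block called 2.27% of genes higher and 5.14% lower, 867 genes in all against 281 without it.

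The other factors of AsPC-1 showed no called change of new RNA after dTAG. HNF4G had 8.55 ± 2.61 T>C CPM (n = 10) in NEG and 6.60 ± 1.51 (n = 10) after dTAG and was lower in 9 of 10 pairs (log2 fold change −0.35, SE 0.19, edgeR adjusted p 0.514). GATA6 had 20.5 ± 3.49 and 20.9 ± 6.04 (0.05, SE 0.17), CDX2 10.8 ± 4.72 and 9.39 ± 4.65 (−0.19, SE 0.32), and SOX9 105 ± 34.9 and 108 ± 41.0 (0.06, SE 0.22). Each of these 3 was higher in 4 of 10 pairs and lower in 6. FOXA2, with 16 T>C reads in 10 NEG and 26 in 10 dTAG libraries, and FOXA3, with 35 and 17, did not pass the filter on low counts. In the whole pool, 0 of 6 factors tested were called, and 0.797% of genes were. HNF4A had a log2 fold change of −1.03 (edgeR, SE 0.30, adjusted p 0.185, n = 9 dTAG libraries) and FOXA1 of 0.58 (SE 0.37). Blocking on library set and experiment, chosen once the sets were seen, gave −1.15 (adjusted p 2.56e-06) and 0.70 (0.000375).

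**Figure D3:**
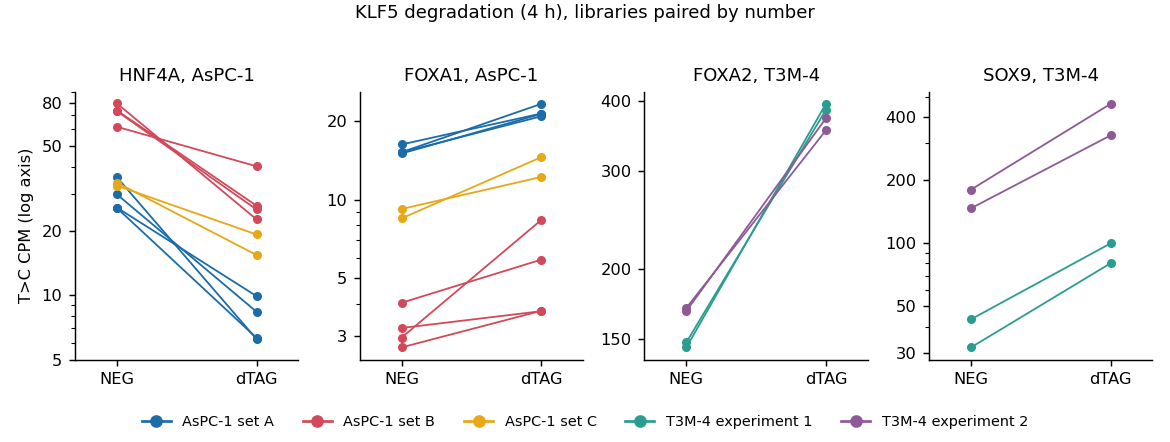
New RNA of HNF4A and FOXA1 in AsPC-1 and of FOXA2 and SOX9 in T3M-4, in T>C CPM on a log axis, before and after KLF5 degradation. Each line joins the NEG and the dTAG library of the same number; HNF4A is lower in 10 of 10 pairs, FOXA1 higher in 10 of 10, and FOXA2 and SOX9 higher in 4 of 4.

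The labelled share of all 6 factors tested in AsPC-1 was lower after dTAG, as it was for many genes. GATA6 had 43.99 to 48.3% in the 10 NEG libraries and 29.7 to 41.2% in the 9 dTAG libraries. Its mean was 46.7% ± 1.57 (n = 10) and 36.3% ± 3.90 (n = 9), a log2 difference of −0.37 (limma adjusted p 0.00103). HNF4A had 21.3% ± 2.05 and 14.1% ± 4.15 (−0.64, limma adjusted p 0.00211), HNF4G 23.6% ± 6.46 and 16.6% ± 3.16 (−0.48, 0.0254) and FOXA1 38.1% ± 6.25 and 29.6% ± 4.02 (−0.36, 0.0185). SOX9 had 53.2% ± 4.06 and 46.6% ± 4.69 (−0.19, limma adjusted p 0.0248), and CDX2 25.9% ± 3.199 and 21.7% ± 2.53 (−0.25, 0.0455, and 0.0825 with the replicate block). Of all genes tested 41.5% were called lower, with a median log2 difference of −0.27. The labelled share of whole libraries was 9.30% ± 0.689 in NEG and 8.001% ± 0.337 after dTAG. Once the labelled share of each whole library was subtracted on the log2 scale, 0 of the 6 were called.

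In T3M-4, where HNF4A is nearly silent, degradation of KLF5 was followed by more new FOXA2 RNA. FOXA2 had 145, 148, 170 and 168 T>C CPM in the 4 NEG libraries and 395, 385, 354 and 372 in the 4 dTAG libraries. The groups did not overlap, and every pair was higher after dTAG, at 2.08 to 2.73 of NEG. The mean was 158 ± 13.3 and 377 ± 17.6 (n = 4 each), 2.39 times higher, with a log2 fold change of 1.18 (edgeR, SE 0.16, adjusted p 0.00925). Among 13424 genes tested 0.0894% were called higher, 12 genes. It was 1.35 (adjusted p 0.0573) in batch 1 and 1.04 (0.0367) in batch 2, and 1.14 to 1.24 when each library was left out in turn, with adjusted p of 0.0249 to 0.044. In the whole pool FOXA2 had 28.0, 30.7, 27.3 and 27.0 CPM in NEG and 71.6, 80.6, 60.4 and 61.8 after dTAG. Its log2 fold change there was 1.24 (edgeR, SE 0.14, adjusted p 0.0388), and it was the only gene called higher in all reads, 0.00636% of those tested. KLF5 itself had 559 ± 44.4 T>C CPM in NEG and 1097 ± 75.5 after dTAG in this line.

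New SOX9 RNA was also higher after dTAG in 4 of 4 T3M-4 pairs, at 2.23 to 2.56 of NEG. NEG libraries had 31.8 and 43.3 T>C CPM in experiment 1 and 147 and 180.0 in experiment 2, and dTAG libraries 80.2 and 99.7, and 326 and 461. Within each experiment both dTAG libraries lay above both NEG libraries, while across experiments the groups overlapped. The log2 fold change was 1.198 (edgeR, SE 0.67, adjusted p 0.872) without pairing. With the replicate number as a block it was 1.19 (edgeR, SE 0.12, adjusted p 0.00267), and 0.313% of genes were called higher, with 298 called in all against 112 without the block. Within experiment 1, which is batch 1, it was 1.2005 (adjusted p 0.134), and within experiment 2 1.21 (0.072). In all reads it was 1.29 (SE 0.63, not called). GATA6 was higher in 4 of 4 pairs by little, at 1.01 to 1.33 of NEG, and was not called (0.11, SE 0.22). FOXA1 (0.03, SE 0.29), CDX2 (0.03, SE 0.35), HNF4G (−0.07, SE 1.16) and FOXA3 (−0.17, SE 0.69) were not called either. HNF4A had 21 T>C reads in the NEG libraries and 20 in the dTAG libraries and did not pass the filter. For the labelled share 0 of 7 factors and 0.201% of genes were called. FOXA2 kept 70.9% ± 6.24 and 71.6% ± 3.21, a log2 difference of 0.02 (SE 0.08).

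The dTAG effect was compared between the lines by an interaction term. Without pairing 0 of the factors and 0.0426% of genes were called, with SOX9 at a log2 difference of 1.15 (edgeR, SE 0.59, adjusted p 0.88), T3M-4 minus AsPC-1. With the replicate number as a block within each line, a fit added after seeing the data, SOX9 was called (1.18, SE 0.18, edgeR adjusted p 0.00396), as were 0.575% of genes. FOXA1 was not (−0.55, SE 0.26, adjusted p 0.44). The same fit gave 0.51 (SE 0.73, adjusted p 0.866) for FOXA2, which has almost no reads in AsPC-1, and 1.15 (SE 0.67, adjusted p 0.562) for HNF4A, which has almost none in T3M-4.

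**Figure D4:**
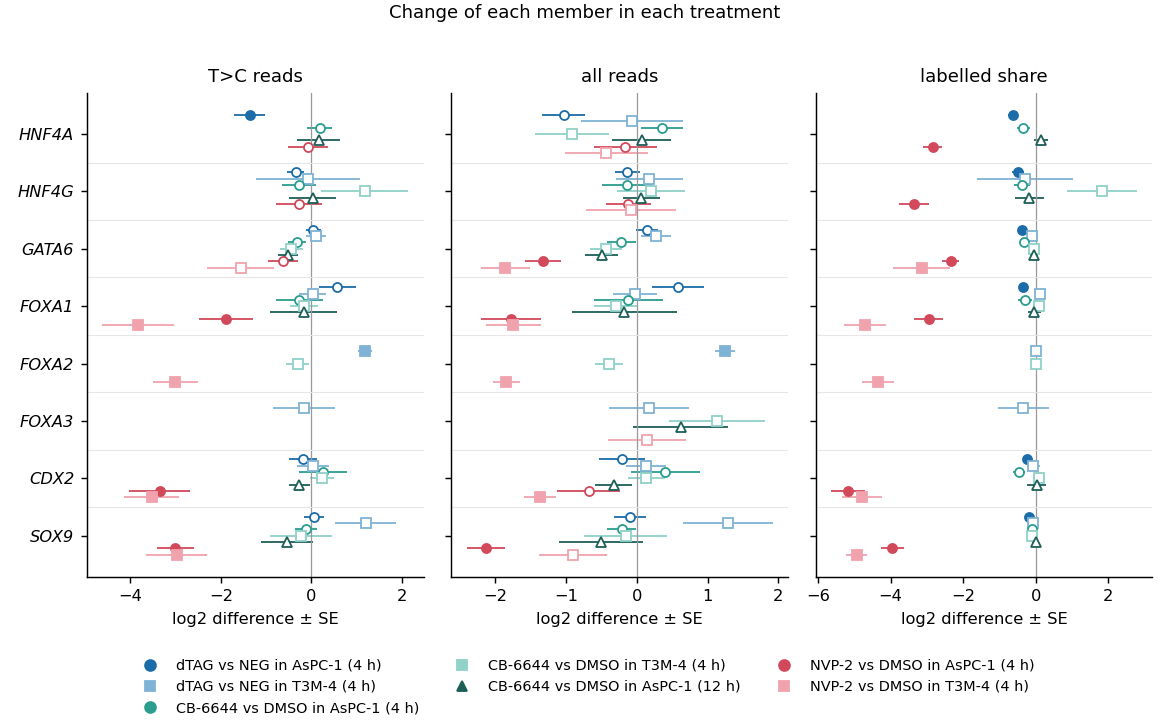
Log2 differences of each factor in 7 treatment contrasts, in T>C reads, all reads and labelled share. Bars are ± 1 SE and filled points have an adjusted p under 0.05 without a replicate block; in T>C reads only HNF4A is filled for dTAG in AsPC-1 and only FOXA2 for dTAG in T3M-4, none is filled for CB-6644, and the NVP-2 columns hold the largest differences.

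RUVBL1/2 inhibition left no called change in any factor, in any of its 3 comparisons. Of all genes, 0% were called in T>C reads in AsPC-1 at 4 h, 0% in T3M-4 at 4 h and 0% in AsPC-1 at 12 h, with 482 of 11649, 569 of 13444 and 473 of 12204 genes at an unadjusted edgeR p under 0.05. DESeq2 called 0, 5 and 20 genes. GATA6, FOXA1 and SOX9 had negative values in all 3, none of them called. GATA6 had 19.6, 23.5, 19.8, 28.8 and 23.9 T>C CPM in AsPC-1 DMSO libraries at 4 h and 26.3, 18.6, 15.4, 15.8 and 19.95 with CB-6644, with overlap. At 12 h it had 31.5, 31.2, 24.1 and 21.9 in DMSO and 27.1, 19.3, 15.3 and 18.3 with CB-6644, where 3 of 4 lay below all DMSO libraries. In T3M-4 it had 12.6, 10.2, 7.70 and 12.7, and 8.60, 6.87, 8.38 and 9.78. These gave log2 fold changes of −0.32 (SE 0.20), −0.53 (SE 0.22) and −0.45 (SE 0.26), with edgeR adjusted p of 0.979, 0.998 and 0.994. The spread of these libraries leaves room for changes of this size.

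The other factors were not called with CB-6644 either. In AsPC-1 at 4 h HNF4A had 33.2 ± 10.1 T>C CPM (SD, n = 5) in DMSO and 39.0 ± 14.6 (n = 5) with CB-6644 (log2 fold change 0.18, SE 0.28), and HNF4G 10.0 ± 3.97 and 8.48 ± 4.14 (−0.28, SE 0.37). FOXA1 had 9.43 ± 5.87 and 8.02 ± 4.90 (−0.27, SE 0.53), CDX2 6.75 ± 3.72 and 8.19 ± 5.29 (0.25, SE 0.53) and SOX9 91.1 ± 33.8 and 87.1 ± 14.8 (−0.12, SE 0.24). The sets were unequal in these groups. At 12 h HNF4A (0.16, SE 0.48), HNF4G (0.03, SE 0.53), FOXA1 (−0.17, SE 0.74), CDX2 (−0.27, SE 0.24) and SOX9 (−0.53, SE 0.58) were not called. In SOX9 at 12 h, 1 DMSO library had 217 T>C CPM against 42.8 to 70.8 in the other 3, and 1 CB-6644 library 153 against 35.7 to 54.4. In T3M-4 FOXA2 had 163, 151, 158 and 135 T>C CPM in DMSO and 92.2, 107, 147 and 167 with CB-6644 (−0.30, SE 0.25). It was −0.85 (adjusted p 0.146) in batch 1, where both CB-6644 libraries lay below both DMSO libraries, and 0.09 (0.999) in batch 2. SOX9 (−0.23, SE 0.68), FOXA1 (−0.17, SE 0.31), CDX2 (0.23, SE 0.26) and HNF4G (1.18, SE 0.96) were not called. No factor was called for a difference of the CB-6644 effect between the lines or between 4 and 12 h. In labelled share, 0 of 6 factors were called in AsPC-1 at 4 h, where 2.89% of genes were called lower and whole libraries had 8.51% ± 0.254 against 10.1% ± 0.624 in DMSO. CDX2 had 17.6 to 24.8% with CB-6644 and 26.6 to 35.3% in DMSO (log2 difference −0.45, SE 0.17, limma adjusted p 0.135).

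The factors differed in which were called after CDK9 inhibition. T>C reads fell to 1.57% ± 0.239 of all reads in AsPC-1 and 2.24% ± 0.417 in T3M-4, so T>C CPM after NVP-2 rank genes within a much smaller amount of labelled RNA. On that scale CDX2, FOXA1 and SOX9 were called lower in both lines and FOXA2 in T3M-4. HNF4A and HNF4G, tested in AsPC-1 only, were not called, and the factors were not tested against each other. CDX2 had 7.29, 12.0, 8.06, 2.87 and 3.51 T>C CPM in AsPC-1 DMSO libraries and 0.284, 0.694, 0.343 and 0.446 with NVP-2, from 5 T>C reads in 4 libraries. SOX9 had 77.8, 128, 46.7, 121 and 81.1, and 7.11, 11.5, 9.27 and 3.12. FOXA1 had 18.3, 11.2, 2.95, 5.82 and 8.81, and 0.853, 2.08, 2.75 and 1.34, from 20 T>C reads. In all 3, every NVP-2 library lay below every DMSO library, and how many of all genes did so was not counted. The log2 fold changes were −3.36 for CDX2 (edgeR, SE 0.68, adjusted p 0.00342), −3.004 for SOX9 (SE 0.41, adjusted p 0.000354) and −1.89 for FOXA1 (SE 0.60, adjusted p 0.0332), and 17.6% of genes were called lower. The FOXA1 call was lost when DMSO library 1.1, 1.2 or 2.2 or NVP-2 library 1.1, 1.2 or 2.2 was left out, with adjusted p of 0.0554 to 0.0815. GATA6 had 19.6 to 28.8 T>C CPM in DMSO and 7.11, 17.3, 7.21 and 9.82 with NVP-2, without overlap (−0.63, SE 0.33, edgeR adjusted p 0.17), and was called without NVP-2 library 1.2 (−0.99, adjusted p 0.0372).

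HNF4A and HNF4G were not called in the T>C reads of AsPC-1 with NVP-2. HNF4A had 37.8, 38.9, 43.7, 26.2 and 19.2 T>C CPM in DMSO and 8.53, 10.1, 35.7 and 33.9 with NVP-2. The first pair of NVP-2 libraries was of set A and the other of set B. The log2 fold change of HNF4A was −0.07 (SE 0.44), and −0.81 (edgeR, SE 0.39, adjusted p 0.16) with library set as a block. HNF4G had 15.8, 11.9, 8.75, 5.32 and 8.34, and 6.82, 10.4, 2.40 and 2.68 (−0.28, SE 0.51). Of the DMSO values listed, the first 2 were of set A, the next 1 of B and the last 2 of C. Within set A and within set B, both genes were lower in every NVP-2 library than in every DMSO library. Set B had only 1 DMSO library, and set C had none with NVP-2. The AsPC-1 NVP-2 libraries were of batch 2 and the DMSO libraries of batch 1, so batch and treatment cannot be told apart in this comparison. Against the NEG libraries of experiment 3, which are of batch 2, CDX2 (−4.21, adjusted p 0.000891) and SOX9 (−2.82, 0.00151) were called and FOXA1 was not (−1.77, 0.0745). When T>C reads were scaled by each library's total of all reads in place of T>C reads, all 6 factors were called lower, from −3.35 for HNF4A to −6.50 for CDX2, around a median gene at −3.26.

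In T3M-4 FOXA2 fell from 163, 151, 158 and 135 T>C CPM in DMSO to 6.08, 6.42, 13.6 and 21.0 with NVP-2, and SOX9 from 35.0, 28.6, 154 and 141 to 5.32, 4.42, 10.9 and 8.89. FOXA1 fell from 6.75, 9.10, 3.79 and 5.10 to 0.253, 0.401, 0.454 and 0, and CDX2 from 8.08, 7.28, 8.68 and 8.33 to 0.760, 0.401, 0.227 and 0.539. These last values rest on 5 and 8 T>C reads in 4 libraries. All 4 were without overlap, and how many of all genes were was not counted. The log2 fold changes were −3.01 (edgeR, SE 0.50, adjusted p 0.00195) for FOXA2, −2.98 (SE 0.68, 0.00926) for SOX9, −3.83 (SE 0.79, 0.00576) for FOXA1 and −3.53 (SE 0.60, 0.00232) for CDX2. Of all genes 14.2% were called lower. All 4 were called within batch 1, and FOXA2, SOX9 and CDX2 within batch 2, where FOXA1 had −3.39 (adjusted p 0.116). GATA6 had 12.6, 10.2, 7.70 and 12.7, and 7.60, 2.01, 0.227 and 1.08 (−1.56, SE 0.74, edgeR adjusted p 0.147), and was called without NVP-2 library 1.1 (−2.74, adjusted p 0.0154). HNF4A, HNF4G and FOXA3 did not pass the filter here. Scaled by all reads, all 5 factors tested were called lower, from −4.42 for GATA6 to −6.80 for FOXA1, around a median gene at −3.09. No factor was called for a difference of the NVP-2 effect between the lines, in which FOXA2 had −5.68 (edgeR, SE 1.395, adjusted p 0.0599), a value that rests on 14 T>C reads in 1 AsPC-1 NVP-2 library.

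The whole RNA pool of the factors shrank to different extents within the 4 h of NVP-2. In AsPC-1 all reads of SOX9 fell by 2.13 on the log2 scale (edgeR, SE 0.27, adjusted p 0.000828), of FOXA1 by 1.78 (SE 0.42, adjusted p 0.0222) and of GATA6 by 1.32 (SE 0.26, adjusted p 0.00821), while 8.39% of genes were called lower. GATA6 went from 3.51, 4.71, 3.79, 5.05 and 5.02 CPM of all reads to 1.69, 2.01, 1.17 and 1.1999. HNF4A (−0.16, SE 0.44), HNF4G (−0.12, SE 0.32) and CDX2 (−0.68, SE 0.44) were not called. With library set as a block, CDX2 was called (−1.29, edgeR adjusted p 0.0275) and HNF4A had −0.81 (0.0885). In T3M-4 FOXA2 fell by 1.84 (edgeR, SE 0.19, adjusted p 0.00126), GATA6 by 1.85 (SE 0.34, 0.0147), FOXA1 by 1.74 (SE 0.39, 0.0341) and CDX2 by 1.37 (SE 0.23, 0.00869), and 4.91% of genes were called lower. FOXA2 went from 32.5, 28.8, 24.5 and 21.1 CPM of all reads to 7.94, 7.89, 4.63 and 6.64. SOX9 was not called in T3M-4 (−0.89, SE 0.48), nor were HNF4A (−0.43, SE 0.58), HNF4G (−0.08, SE 0.64) and FOXA3 (0.14, SE 0.56). The labelled share fell for 6 of 6 factors tested in AsPC-1 and 5 of 5 in T3M-4, as for 95.7% and 93.4% of genes. In AsPC-1 it went from 55.5% to 3.83% for SOX9, from 52.8% to 10.4% for GATA6, from 42.5% to 5.34% for FOXA1, from 29.4% to 0.645% for CDX2, from 24.3% to 2.66% for HNF4G and from 21.3% to 2.85% for HNF4A. In T3M-4 it went from 70.8% to 4.00% for FOXA2, from 68.0% to 2.21% for SOX9, from 67.3% to 10.7% for GATA6, from 60.7% to 1.65% for FOXA1 and from 39.6% to 1.199% for CDX2.

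Labelled share without inhibitor ordered the factors in nearly the same way in both lines. In AsPC-1 DMSO libraries, T>C reads made up 56.4% of the summed reads of SOX9, 52.1% of GATA6, 43.7% of FOXA1, 30.9% of CDX2, 24.7% of HNF4G and 20.7% of HNF4A. Against a median gene at 15.5% these lie at percentiles 99.0, 98.1, 94.6, 83.7, 73.8 and 65.2 of 13176 genes. In T3M-4 the shares were 70.8% for FOXA2, 69.5% for SOX9, 67.9% for GATA6, 61.9% for FOXA1, 39.0% for CDX2 and 24.5% for HNF4G, against a median gene at 17.3%. HNF4A had 6 T>C reads of 200 in T3M-4, too few to place it. The number of T bases in each 3′UTR was not taken into account.

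In AsPC-1 the 3 factors with the higher share in NEG libraries were the 3 whose pool was called lower with NVP-2 without a block. With library set as a block CDX2, of lower share, was called too. The 2 measures compared share no libraries. In AsPC-1, HNF4A, HNF4G and CDX2 had NEG shares of 20.9%, 23.4% and 25.4% and NVP-2 log2 fold changes of all reads of −0.16, −0.12 and −0.68. FOXA1, GATA6 and SOX9 had 40.2%, 46.6% and 53.4%, and −1.78, −1.32 and −2.13. All genes went the same way: the median log2 fold change was 0.40 for 4306 genes with a share under 10%, −0.24 for 2619 genes at 20 to 30% and −1.78 for 209 genes at 50% or more. Spearman's rho over 13918 genes was −0.616, given as a description since genes are not independent. In T3M-4, CDX2 had 39.8% and −1.37, FOXA1 61.4% and −1.74, GATA6 67.1% and −1.85 and FOXA2 70.2% and −1.84. SOX9 had 69.7% and only −0.89, with a median of −1.25 for the 1209 genes at 50% or more. Spearman's rho over 14504 genes was −0.574. Both measures come from counts of the same gene, and share its 3′UTR length and composition.

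**Figure D5:**
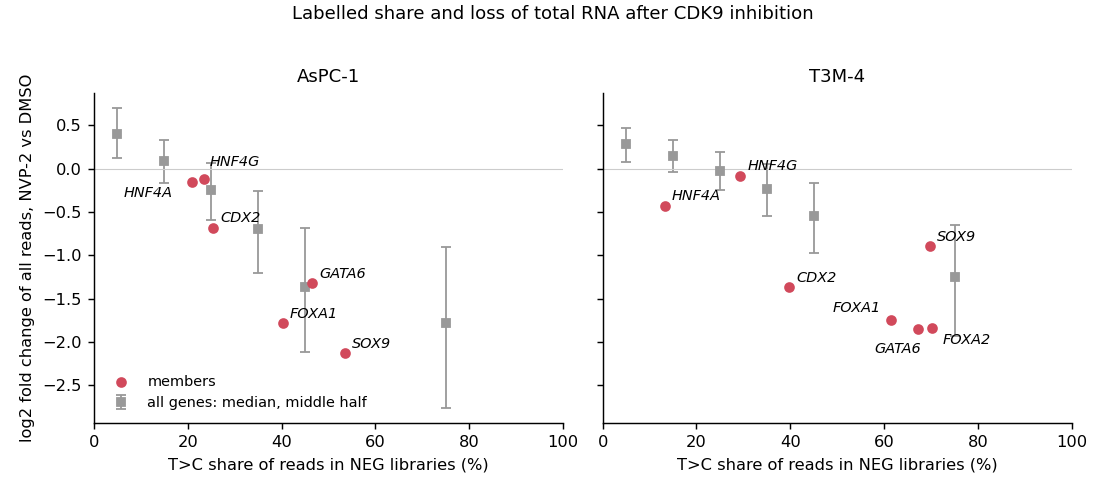
Labelled share in NEG libraries (%, horizontal axis) and log2 fold change of all reads with NVP-2 (vertical axis), in each line. Red points are the factors and grey squares the median of all genes in bins of the share, with bars over the middle quartiles of the genes and the bin of 50% or more drawn at 75%; SOX9 at 53.4% has the lowest value of the factors in AsPC-1, −2.13, and GATA6 in T3M-4, −1.85.

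Other lineage factors and textbook targets of these factors were read beside them. Of 20 further gut, liver and pancreas lineage factors, 11 were tested in T>C reads after dTAG in AsPC-1 and 11 in T3M-4, and 0 were called. Their median log2 fold changes were −0.12 and 0.07, beside 0.03 and 0.01 over all genes. Of 20 textbook targets such as VIL1, the actin bundler of the brush border, 7 and 2 were tested and 0 called, with medians of −0.22 and −0.58. After CB-6644 0 were called in T>C or all reads in all 3 comparisons. After NVP-2 in AsPC-1, 2 of 11 lineage factors fell in T>C reads, a share near the 17.6% of all genes. HHEX fell by 3.42 on the log2 scale (edgeR adjusted p 0.00279) and MNX1 by 2.51 (0.00273), both homeobox factors. TCF7L2, the Wnt pathway factor, rose by 0.75 (0.0355), and the median of the list was −0.66 beside −0.05 over all genes. Of 8 targets, 5 rose and 0 fell, where 12.9% of all genes rose, among them the cadherin CDH17 (1.63, edgeR adjusted p 0.00728), the tetraspanin TSPAN8 (1.42, 0.0069), the galectin LGALS4 (1.45, 0.0126) and the lectin REG4 (2.202, 0.0196), with a median of 1.44. Scaling by all reads moved the median gene to −3.26 and left 6 genes of all higher, so these rises are relative to the other new RNA. In T3M-4 HHEX fell by 3.15 (edgeR adjusted p 0.0333) in T>C reads, and HES1, the Notch target, by 2.61 in all reads (0.000158). Between the lines in DMSO, where 25.2% of all genes were called higher in AsPC-1 and 30.5% lower, AsPC-1 had more reads of 8 of 12 lineage factors tested, among them ONECUT2 (5.91) and PPARG (2.46), and fewer of 2, GATA4 (−4.43) and RXRA (−0.91). It had more of 8 of 10 targets, among them CDH17 (9.38) and TSPAN8 (8.67), and fewer of MUC2 (−5.58).

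Across the 38 AsPC-1 libraries without NVP-2, the genes whose log2 T>C CPM were most like each factor were found among 9492 genes with a mean of at least 5 T>C CPM. These libraries share the sets, so the values are descriptions without a test. HNF4A was most like INPP1 (Pearson's r 0.914), INPP5D (0.906) and EFNA2 (0.873), and FOXA1 most like LIMCH1 (0.943), BDNF (0.937) and NECTIN3 (0.935). SOX9 was most like TSPAN15 (0.917), MAF1 (0.893) and SUMO2 (0.888), and CDX2 most like ISL1 (0.884), ATG4B (0.861) and UGT1A6 (0.809). HNF4G was most like FXR1 (0.789), AFAP1 (0.786) and KCTD1 (0.773). GATA6 had the lowest likeness, with FGFBP1 at 0.722, FHL2 at 0.720 and DUSP16 at 0.713. Among the factors, HNF4A and FOXA1 had an r of −0.771 and HNF4G and FOXA1 of 0.622.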

How the data were processed

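SLAM-seq 3′ end libraries (QuantSeq, 62 in all) were made from both lines after 2 h of 4sU. The authors processed the reads with slamdunk at default settings against hg38 and GENCODE v44 3′UTR exons and summed T>C reads and all reads per gene. The values deposited by the authors are raw counts. No spike-in was used. The all-reads column of 1 AsPC-1 dTAG library (3.1) was left out, since it equals the T>C column of another library and 8047 genes had more T>C than all reads in it, against 0 in other libraries. All-reads and labelled-share fits therefore used 9 dTAG libraries.

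Here, counts were tested with edgeR 4.0.16 (filterByExpr, TMM, quasi-likelihood), and labelled share, log2 of T>C reads plus 0.5 over all reads plus 1, with limma 3.58.1. Benjamini-Hochberg adjustment ran over all genes, at 0.05. DESeq2 1.42.0, other scalings, filters, pseudocounts, batches, summed experiments, blocks and left-out libraries were alternatives. Printed CPM use library totals without TMM. Fits were also run on simulated data, with an outcome that is not given here. Simulated labelled shares had no spread between libraries beyond counting error, so they do not test how limma handles that spread. The factors, lists and tests were chosen with earlier results of these data known. In the lists, up to 4 genes with the smallest p were named per list and comparison (a gene that this names is not reported here), and the most alike genes were the 3 with the highest correlation.

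Deviations of same-numbered libraries correlated at 0.264 to 0.544 for dTAG in AsPC-1, 0.167 to 0.453 for dTAG in T3M-4, 0.331 to 0.650 for CB-6644 at 12 h and 0.163 to 0.435 for CB-6644 in T3M-4, so the numbers were taken to pair these libraries. For CB-6644 at 4 h in AsPC-1 they correlated at −0.0826 to 0.472, with only pair 1.2 negative. For NVP-2 it was −0.0875 to 0.187 in AsPC-1 and 0.0790 to 0.366 in T3M-4. The numbers were not taken to pair the libraries of these 3 comparisons. Libraries of different numbers were not correlated, so these values cannot tell pairing by number from a shared set or experiment. Totals of all reads were 82676553 to 200298262 in AsPC-1 and 111132257 to 244524608 in T3M-4. Reads carry counting error that the replicate spread includes.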

Additional observations from a re-analysis of the deposited data

Results flagged for a closer look

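Of 133 groups of 4 to 10 libraries examined, 6 held a library whose gap to the nearest other was over Dixon's 95% critical value, where chance gives about 1 in 20. In AsPC-1 at 12 h, SOX9 had 216.8 T>C CPM in DMSO library 1 and 153.1 in CB-6644 library 2, above the other 3 libraries of each group. In the same groups the labelled share of GATA6 was 44.51% in DMSO library 2, and that of HNF4A 28.25% in CB-6644 library 2. The labelled share of GATA6 was 58.62% in T3M-4 CB-6644 library 1.2. FOXA2 had 4.858 T>C CPM in AsPC-1 NVP-2 library 1.2, from 14 T>C reads, and 0 in the other 3 libraries.

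The effect of dTAG on new SOX9 RNA differed between the lines by 1.18 on the log2 scale (T3M-4 minus AsPC-1, edgeR adjusted p 0.00396) with the replicate number as a block within each line. Without the block it was 1.15 (adjusted p 0.882).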

How the results depend on the processing

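The number of factors called was sensitive to how libraries were paired. For T>C reads after dTAG in AsPC-1 it was 1, and became 2 with the replicate block or the library set and experiment block, 1 (HNF4A) when summed per experiment with the block, and 0 when summed without it, in set C, batch 1 or batch 2 alone, or without any 1 experiment (0 to 0). In T3M-4 it was 1, and became 2 with the replicate block, 0 when summed per experiment, 2 when summed with the block and 0 in batch 1 alone. All reads after dTAG in AsPC-1 gave 0, and 2 with the set block. The interaction for dTAG gave 0, and 1 with the replicate block. NVP-2 T>C reads gave 3 in AsPC-1, with 6 when scaled by all reads and 1 when summed per experiment, with or without the block, and 4 in T3M-4, with 0 when summed. Labelled shares centred on the library gave 0 of 6 for dTAG and 2 of 6 for NVP-2 in AsPC-1. Sets alone, the set block on all reads, blocks on labelled shares and the block in interactions were chosen after seeing the data. The cause of these shifts was not tested. The replicate block, where numbers were not taken to pair libraries, called 0 genes for CB-6644 at 4 h in AsPC-1, 2370 for NVP-2 in AsPC-1 and 2966 in T3M-4.

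Counts over all genes moved by over 1.5 times: 281 after dTAG in AsPC-1 ranged over 0 to 941 (36 to 256 without an experiment), 112 in T3M-4 over 0 to 340 (22 to 70), 3506 for NVP-2 in AsPC-1 over 1024 to 10829, 3263 in T3M-4 over 0 to 10680, and 0 for CB-6644 up to 15, 5 and 20. Labelled-share counts of 4884, 337, 11007 and 11432 fell as low as 183, 0, 4062 and 3968 (dTAG and CB-6644 at 4 h in AsPC-1, NVP-2 in AsPC-1 and T3M-4), and 111 for all reads after dTAG rose to 767. Scaling by all reads moved the median gene to −0.217 for dTAG in AsPC-1, 0.115 for dTAG in T3M-4 and −0.194 for CB-6644 at 4 h in AsPC-1.

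Signs turned for values that were not called, apart from labelled shares. After dTAG in AsPC-1, GATA6 was −0.19 scaled by all reads, −0.0046 and −0.022 summed without and with the block, −0.034 in set B, −0.23 in set C and −0.039 in batch 1. CDX2 was 0.052 in set A, 0.035 in set C and 0.15 in batch 1, and SOX9 −0.30 scaled, −0.044 in set B, −0.022 in batch 2 and 0.020 as a centred share. After dTAG in T3M-4, HNF4G was 0.096 scaled, 0.026 with the replicate block and 0.57 in batch 1, FOXA1 −0.28 in batch 1, CDX2 −0.040 with the block, −0.024 summed with the block and −0.20 in batch 2, and the centred share of FOXA2 −0.016. For CB-6644 at 4 h in AsPC-1, HNF4A was −0.024 scaled, FOXA1 0.12 and, in all reads, 0.20 with the set block, and the centred share of SOX9 0.13. In T3M-4, batch 2 gave 0.27 for FOXA1, 0.095 for FOXA2 and −0.068 for CDX2, and centred shares 0.025 for GATA6 and 0.075 for FOXA2. At 12 h HNF4G was −0.11 with the replicate block and −0.15 with the set block, and centred shares were 0.018 for GATA6, 0.031 for FOXA1 and 0.070 for SOX9. For NVP-2 in AsPC-1, HNF4A was 0.0015 by DESeq2, 0.00021 with RLE and 0.010 summed, HNF4G 0.11 against NEG, and the centred share of GATA6 0.34. Between lines CDX2 was 0.85 in NEG libraries and 0.058 in batch 1. Interactions with the replicate block gave 0.062 for CDX2 (CB-6644), 0.467 for SOX9 (NVP-2), 0.084 for HNF4A and −0.054 for FOXA1 (12 h minus 4 h).

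Leaving out each library, or each experiment of dTAG in AsPC-1, moved these values across 0. After dTAG in AsPC-1 the range was −0.039 to 0.094 for GATA6 and −0.60 to 0.15 for CDX2. After dTAG in T3M-4 the range was −0.69 to 0.38 for HNF4G, −0.099 to 0.17 for FOXA1, −0.35 to 0.084 for FOXA3 and −0.28 to 0.25 for CDX2. For CB-6644 in AsPC-1 at 4 h the range was −0.0011 to 0.31 for HNF4A, −0.59 to 0.11 for FOXA1 and −0.28 to 0.029 for SOX9. In T3M-4 the range was −0.36 to 0.066 for FOXA1 and −0.79 to 0.14 for SOX9. At 12 h in AsPC-1 the range was −0.11 to 0.45 for HNF4A, −0.33 to 0.36 for HNF4G, −0.81 to 0.29 for FOXA1 and −1.21 to 0.20 for SOX9. For NVP-2 in AsPC-1 the range was −0.40 to 0.17 for HNF4A. Between the lines the range was −0.26 to 0.14 for CDX2 and −0.051 to 0.54 for SOX9.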
